A study of Rattus norvegicus with 4 samples.

Results

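Cornification enzymes and epidermal barrier lipid genes were described in 4 RNA-seq libraries of rat ear skin. The 10 genes were taken by symbol from the deposited count table, which lists 54532 genes. They were Abca12, Elovl4, Cers3, Alox12b, Aloxe3, Tgm1, Tgm3, Asprv1, St14 and Serpinb5. Of these, 9 had a count in some library, 6 had one in all 4 libraries, and 5 (Serpinb5, Abca12, Tgm1, Elovl4 and Asprv1) had enough counts to be tested.

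The libraries came from 2 Sprague Dawley (SD) rats, rat 1 and rat 2. In each animal 1 ear received an adeno-associated virus (AAV, a common gene delivery vector) that carried Fgf7, and the other ear a control AAV. The genotype is given as wt for the control ears and as Fgf7 overexpression for the others. Skin at the injected sites was taken on day 3, so each group held 2 libraries, 1 from each rat. Although the animals are rats, all 54532 rows carry mouse gene identifiers and mouse positions of a build that the table does not name, and positions below are given as listed there. All ears, controls included, had received virus, and an ear without injection was not analysed here. The labels and the design text give opposite ear sides, so side was not used, and the labels name no promoter for the vector. The comparison asked how skin transcripts differ when FGF7, a growth factor for keratinocytes, is supplied.

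In the outer epidermis, keratinocytes die into flat cornified cells whose protein shell is crosslinked by transglutaminases and whose outer face is coated with very long ceramides. ABCA12 loads lipids into lamellar granules, ELOVL4 and CERS3 make the very long acyl ceramides, and the lipoxygenases ALOX12B and ALOXE3 oxidise them so that they can be bound to the shell. Proteases such as matriptase (St14) and ASPRV1 act on filaggrin and its processing, and maspin (Serpinb5) is a serpin of epithelial cells. Inherited loss of several of these genes causes ichthyosis in people.

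Upstream sequence is shown for Serpinb5, Asprv1 and Tgm3, since in each of them both AAV-Fgf7 libraries lay above both controls. This choice was made by outcome, and 14.8% of all tested genes lay so. Tgm3 had too few counts to be tested, and Asprv1 was high enough for testing only in its AAV-Fgf7 libraries. The sequences are the 250 bases before the start of each rat gene, from RefSeq (GRCr8), written from 5′ to 3′ on the plus strand. Capitals mark matches to 4 motifs searched on both strands. The AP-1 motif of Fos and Jun was searched as TGANTCA. Here N is any base, so a match need not be a site that they bind. The motif of Grainyhead-like factors, which regulate epidermal barrier genes, was searched as AACNGGTT. The GC box was searched as GGGCGG. The TATA box was searched as TATAAA. The positions are chr13:23499953-23500202 for Serpinb5, chr4:120634543-120634792 for Asprv1 and chr3:137681559-137681808 for Tgm3.
Serpinb5: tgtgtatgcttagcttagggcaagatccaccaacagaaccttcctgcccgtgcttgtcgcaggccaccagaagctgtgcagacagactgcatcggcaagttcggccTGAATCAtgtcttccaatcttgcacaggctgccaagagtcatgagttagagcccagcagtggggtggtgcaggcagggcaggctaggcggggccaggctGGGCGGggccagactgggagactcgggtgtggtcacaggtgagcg
Asprv1: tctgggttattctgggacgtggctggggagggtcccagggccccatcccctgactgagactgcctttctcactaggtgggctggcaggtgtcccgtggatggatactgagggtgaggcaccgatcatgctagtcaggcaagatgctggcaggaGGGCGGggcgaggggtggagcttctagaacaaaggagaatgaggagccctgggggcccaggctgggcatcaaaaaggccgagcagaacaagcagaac
Tgm3: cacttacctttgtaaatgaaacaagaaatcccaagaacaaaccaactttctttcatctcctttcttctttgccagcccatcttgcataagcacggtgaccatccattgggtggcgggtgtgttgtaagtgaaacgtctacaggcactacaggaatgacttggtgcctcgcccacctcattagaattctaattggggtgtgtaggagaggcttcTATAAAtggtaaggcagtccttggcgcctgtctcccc

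These windows shared no motif match across all 3 genes. Serpinb5 held the 1 match to the loose AP-1 letters found among the members, TGAATCA, 144 bases before its start. It also held a GC box at 45 bases. Asprv1 held a GC box at 97 bases, and Tgm3 a TATA box at 37 bases. The table gave 9 of the 10 members, St14 being the other. AP-1 letters were in 6.34% of 33469 such windows, GC box letters in 30.5% and TATA box letters in 12.9%. Grainyhead-like letters were in 1.76% of windows. Among the 9 members' windows, 6 held a GC box, 1 the AP-1 letters, 1 the TATA box and 0 the Grainyhead-like letters. A match is a string of letters, and binding was not measured.

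Levels compared between genes are the authors' FPKM, which divide the count by gene length and library size. Serpinb5 was the member with the highest level, at a mean of 20.8 FPKM over the 4 libraries (range 12.0 to 40.7). Asprv1 followed at 4.88 FPKM (range 2.42 to 8.78), below every Serpinb5 value. Tgm1 stood at 3.42 FPKM, Elovl4 ranged from 1.51 to 4.49 FPKM, and Abca12 and Tgm3 had means of 1.71 and 0.913 FPKM. Cers3 (0.434), St14 (0.256), Alox12b (0.140) and Aloxe3 (0) closed the order. From Asprv1 down, the range over libraries of each gene overlapped that of the next, so their order is not fixed by these data. Reads of some rat genes may be missing from rows with mouse identifiers, so the whole order, Serpinb5 included, is one of this table only.

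**Figure D1:**
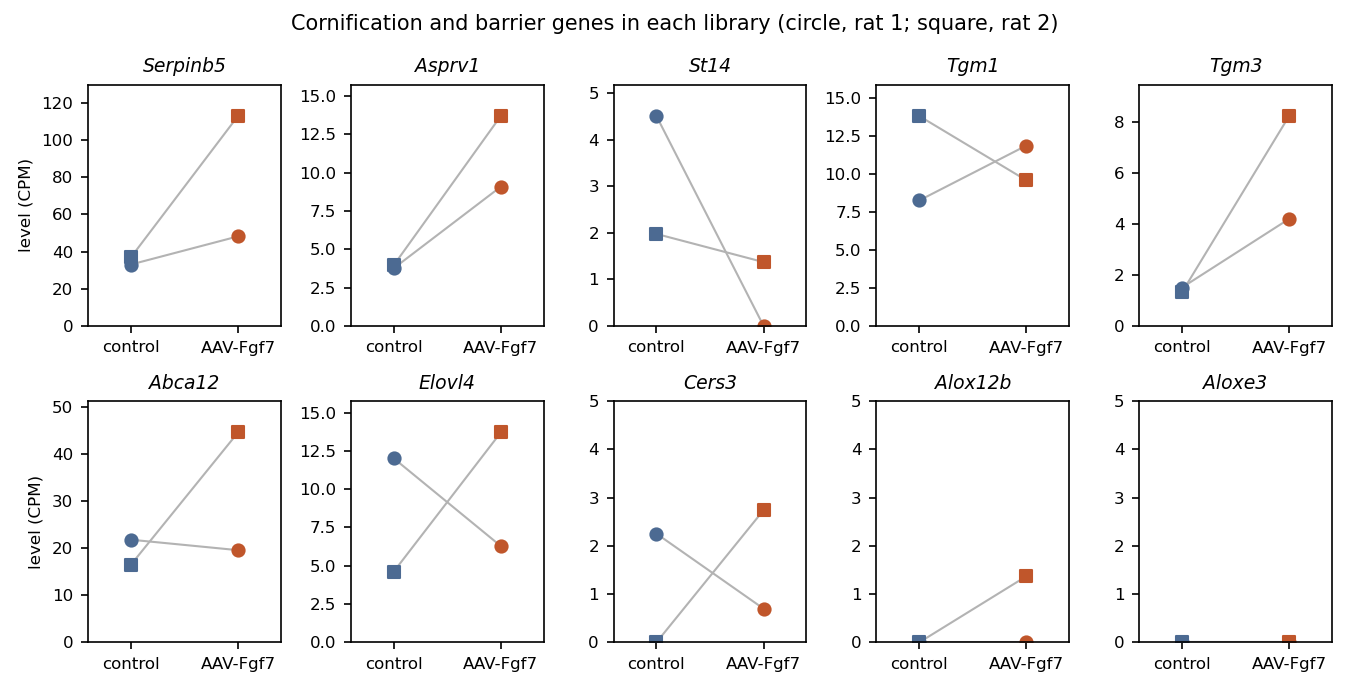
Level of each member (vertical axis, TMM-scaled CPM, from 0) in control and AAV-Fgf7 ears, with a line joining the ears of a rat (circles, rat 1; squares, rat 2). Serpinb5, Asprv1 and Tgm3 have both AAV-Fgf7 libraries above both controls, St14 has both below, and the AAV-Fgf7 library of rat 2 is the highest for 7 members. Over all tested genes, which leave out Tgm3, St14, Cers3 and Alox12b, these shares are 14.8%, 13.3% and 25.1%.

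Levels between libraries are in CPM, the count divided by a library total that TMM factors (trimmed mean of M values) rescale. No member passed the edgeR quasi-likelihood test over all 6370 tested genes (adjusted p = 0.9995 for each of the 5 tested). The same test called 0 genes in all, 0% of those tested, with 148 at an unadjusted p under 0.05. DESeq2 called 4 genes, or 0.0628%, with 84 genes under 0.05 unadjusted. Limma-voom called 0, with 131 so placed. Neither called a member. Asprv1 and Serpinb5 had an unadjusted edgeR p under 0.05, as did 1.71% of all tested genes in the higher direction. By DESeq2 Serpinb5 alone did so, and by limma-voom none of them. With rat as a block, edgeR's unadjusted p was 0.0606 for Asprv1 and 0.0524 for Serpinb5. The delivered gene itself, Fgf7, had a log2 fold change of 3.18 with an adjusted p of 0.9995 by edgeR and 3.47e-07 by DESeq2, so a missed threshold in this design says little about a gene.

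With control virus Serpinb5 had 33.1 CPM in rat 1 and 36.9 CPM in rat 2, and with AAV-Fgf7 it had 48.2 and 113 CPM. In each rat the AAV-Fgf7 ear was the higher, and the AAV-Fgf7 value of rat 2 was 2.34 times that of rat 1. The group values were 35.0 ± 2.70 and 80.6 ± 45.8 CPM (SD, n = 2), and edgeR estimated a log2 fold change of 1.20 (SE 0.45). The 95% interval ran from 0.12 to 2.29, and the edgeR unadjusted p was 0.0351. Leaving out the AAV-Fgf7 ear of rat 2 gave 0.46. The gene, ENSMUSG00000067006, is listed on mouse chromosome 1 from 106861173 to 106883348, plus strand.

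Asprv1, the retroviral-like protease that cleaves profilaggrin, had raw counts of 5 and 6 in the control ears and 13 and 20 in the AAV-Fgf7 ears. The controls were within 1 count of each other, and both AAV-Fgf7 libraries were higher. Levels were 3.85 ± 0.14 and 11.4 ± 3.26 CPM (SD, n = 2). The log2 fold change was 1.54 (SE 0.56), with an interval of 0.17 to 2.92 and an edgeR unadjusted p of 0.0336. Asprv1 passed the low-count filter only through the AAV-Fgf7 libraries, so its place among tested genes already depended on a high AAV-Fgf7 level. DESeq2 gave it an unadjusted p of 0.109. It is listed as ENSMUSG00000033508 on mouse chromosome 6 from 86628164 to 86629710, plus strand.

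St14 encodes matriptase, a membrane protease that activates other epidermal proteases. It had counts of 6 and 3 in the controls and 0 and 2 in the AAV-Fgf7 ears, too few to be tested. Both AAV-Fgf7 libraries lay below both controls. From the summed counts of 9 and 2 the ratio of AAV-Fgf7 to control was 0.219, with an exact 95% interval of 0.0230 to 1.06 that covers counting error only. That interval includes no difference.

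Of the transglutaminases, Tgm1, the membrane-anchored enzyme of the spinous and granular layers, had counts of 11 and 21 in the controls and 17 and 14 in the AAV-Fgf7 ears. Both AAV-Fgf7 values lay between the controls. Its levels were 11.0 ± 3.93 and 10.7 ± 1.62 CPM (SD, n = 2). On the log2 scale the change was -0.05 (SE 0.49), with an interval of -1.25 to 1.16. The direction turned to 0.37 without the control of rat 2 and to 0.10 without the AAV-Fgf7 library of rat 2.

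Tgm3, the soluble transglutaminase of epidermis and hair follicle, had counts of 2 and 2 in the controls and 6 and 12 in the AAV-Fgf7 ears. Both AAV-Fgf7 libraries were above both controls, with ratios between ears of 2.79 in rat 1 and 6.24 in rat 2. Tgm3 did not pass the low-count filter. From the summed counts of 18 and 4 the ratio was 4.44, with an exact counting interval of 1.46 to 18.0. That interval covers counting error only and leaves out differences between rats. Without the filter, edgeR's fit over all genes estimated a log2 fold change of 2.08 (adjusted p = 0.975). Whether Tgm1 and Tgm3 differed in their response was not tested.

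Of the lipid genes, Abca12 stood at 21.8 and 16.5 CPM in the control ears and at 19.6 and 44.5 CPM in the AAV-Fgf7 ears of rats 1 and 2. In rat 1 the AAV-Fgf7 ear was at 0.898 times the control ear, and in rat 2 at 2.70 times. These ratios rest on the rat number given to each AAV-Fgf7 column, since no description names the second. With the columns exchanged, both AAV-Fgf7 values would lie above their controls (44.5 against 21.8 CPM and 19.6 against 16.5 CPM). The log2 fold change was 0.75 (SE 0.49), with an interval of -0.44 to 1.93 and an edgeR unadjusted p of 0.175. Leaving out the AAV-Fgf7 ear of rat 2 gave 0.04. The gene is listed as ENSMUSG00000050296 on mouse chromosome 1 from 71242276 to 71414910, minus strand.

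Elovl4, the elongase of very long fatty acids, had counts of 16 and 7 in the controls and 9 and 20 in the AAV-Fgf7 ears. The ratio between ears was 0.523 in rat 1 and 2.97 in rat 2, and the groups overlapped. These directions too rest on the column assignment, and with the columns exchanged both AAV-Fgf7 ears would be the higher. On the log2 scale the change was 0.28 (SE 0.68), with an interval of -1.39 to 1.95. It turned to -0.26 without the control of rat 2 and to -0.38 without the AAV-Fgf7 library of rat 2. Cers3, the ceramide synthase for ultra-long acyl chains, had counts of 3 and 0 against 1 and 4, a ratio of summed counts of 1.64 with an exact counting interval of 0.320 to 10.6.

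The lipoxygenases were at or near 0. Alox12b, the 12R-lipoxygenase, had 2 counts in the AAV-Fgf7 ear of rat 2 and 0 elsewhere. Aloxe3, which acts on the product of ALOX12B, had 0 counts in all 4 libraries. A count of 0 allows up to 3 counts, which is 1.98 to 2.25 CPM in these libraries, so no difference was detectable from these counts. Reads of some rat genes may also be missing from rows with mouse identifiers, so these values do not show low transcript levels.

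Among the 5 tested members, 4 had a positive log2 fold change, against 47.8% of all tested genes. Their median was 0.75, and that of all tested genes was -0.02. Both AAV-Fgf7 libraries lay above both controls for 2 of the 5, Asprv1 and Serpinb5, against 14.8% of tested genes, and below for 0, against 13.3%. Since Asprv1 was tested only through its high AAV-Fgf7 libraries, these counts carry no weight as evidence. Leaving out the AAV-Fgf7 ear of rat 2 gave a median of 0.10, and leaving out that of rat 1 gave 1.22. The number above both controls was 4 of 5 when either the control library of rat 1 or the AAV-Fgf7 library of rat 1 was left out.

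**Figure D2:**
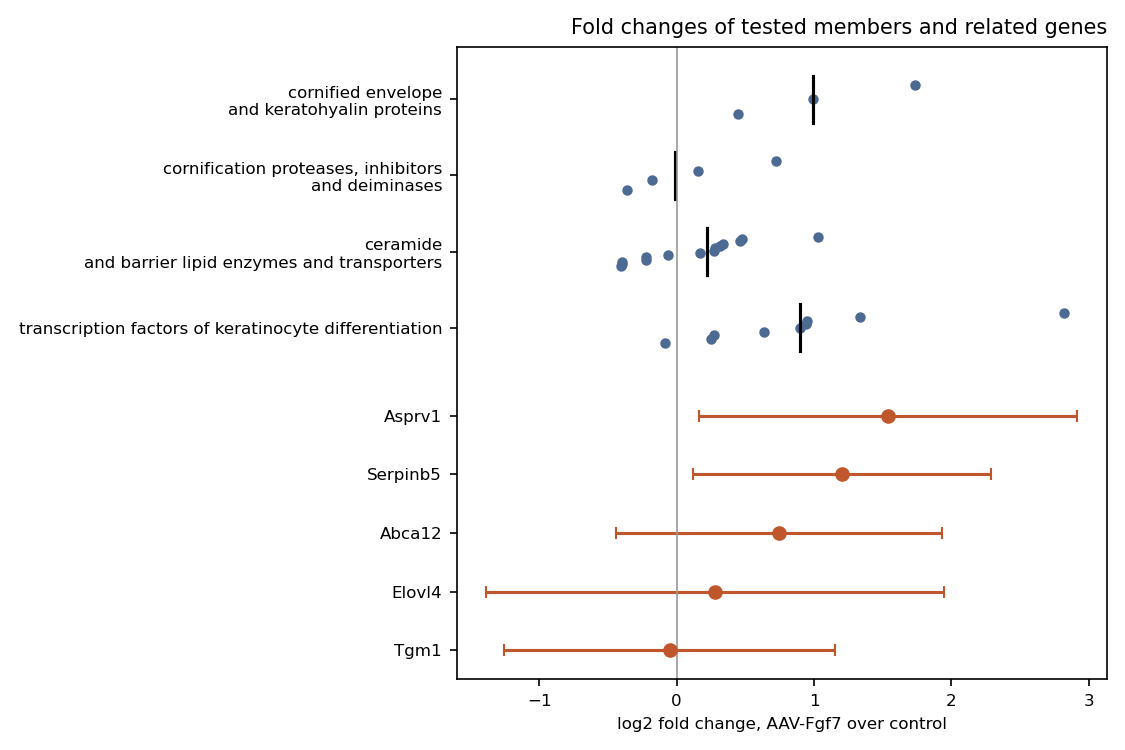
Log2 fold change of AAV-Fgf7 over control (horizontal axis) for the 5 tested members (orange, with the 95% interval of the edgeR fit) and for tested genes of 4 related lists (blue points, 1 per gene, with a black bar at the list's median). In this fit without rat as a block the intervals of Asprv1 and Serpinb5 lie above 0, those of Abca12, Elovl4 and Tgm1 include it, and no gene shown passed the adjusted threshold.

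The AAV-Fgf7 library of rat 2 was the highest of the 4 for 7 of the 9 members with a count, and for 4 of the 5 tested ones. That library was the highest for 25.1% of all tested genes. Of the 7, Tgm3, Cers3 and Alox12b were not tested. Cers3 and Alox12b had 4 and 2 counts there, against at most 3 and 0 in any other library. This tally was made after the values were seen. The same library had the most Fgf7, which served as a check of the labels. Fgf7 had 70.6 CPM in rat 1 and 72.4 CPM in rat 2 with control virus, and 317 and 979 CPM with AAV-Fgf7.

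Keratinocyte markers are given beside the members. The basal list, led by the keratins Krt14 and Krt5, had counts for all 8 of its genes and summed to 1103 and 924 CPM under control virus and to 1457 and 3075 CPM under AAV-Fgf7. All 6 of its tested genes were highest in the AAV-Fgf7 library of rat 2. The suprabasal list, led by Krt10, had counts for 4 of 8 genes and summed to 965 and 599 against 882 and 2599 CPM. That sum was mostly Krt10, at 899 and 576 against 843 and 2541 CPM. Krt2, the other tested gene of the list, had 63.1 and 19.8 against 32.1 and 46.6 CPM and was highest in the control ear of rat 1. The members together summed to 87.1 and 79.0 against 99.9 and 208 CPM. In bulk tissue, a change in the number of keratinocytes and a change in RNA per keratinocyte cannot be told apart.

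**Figure D3:**
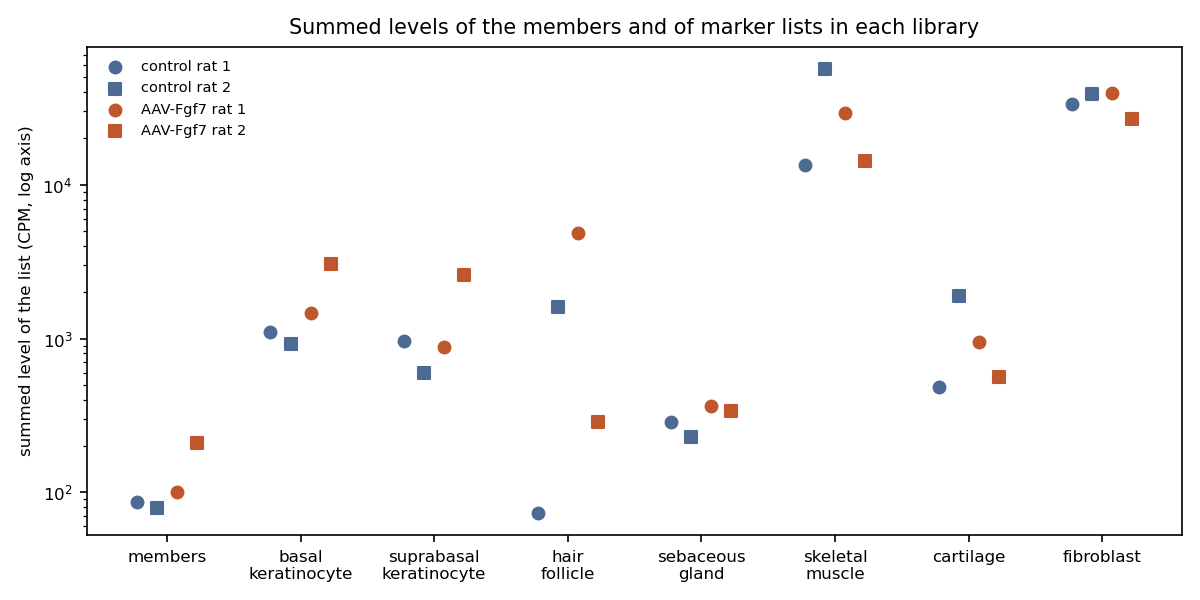
Summed level in each library (vertical axis, CPM, log axis) of the 10 members and of 7 marker lists (blue, control; orange, AAV-Fgf7; circles, rat 1; squares, rat 2). The members and both keratinocyte lists are highest in the AAV-Fgf7 library of rat 2, at 208, 3075 and 2599 CPM, whereas the hair follicle list is highest in that of rat 1 at 4847 CPM.

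The markers of both keratinocyte lists summed to 2069 and 1523 CPM with control virus and 2340 and 5674 CPM with AAV-Fgf7, so dividing by that sum lowers the ratio between groups of any gene. The log2 ratio of mean levels of Serpinb5 was 1.21 per library total and 0.01 per keratinocyte markers, where its libraries overlapped. Asprv1 went from 1.56 to 0.51, and its libraries overlapped too. Abca12 went from 0.74 to -0.40, with both AAV-Fgf7 libraries below both controls. Elovl4 went from 0.27 to -0.79, likewise below both controls, and Tgm1 from -0.04 to -0.95. St14, with 11 counts in all, lay below both controls as well. A gene at equal CPM in all libraries would do so too, since both AAV-Fgf7 marker sums exceed both control sums. The share of all tested genes that did so on this scale was not computed. Tgm3 went from 2.14 to 1.03 and was the 1 member with both AAV-Fgf7 libraries above both controls on this scale. These ratios are descriptions with no test, and their sum of markers is dominated by Krt10, Krt14 and Krt5. With the basal or the suprabasal list alone, added after the values were seen, the log2 ratio of Serpinb5 was -0.00084 and 0.03 and that of Tgm3 0.99 and 1.08. Asprv1 had both AAV-Fgf7 libraries above both controls per basal markers (0.48) and not per suprabasal markers (0.57).

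**Figure D4:**
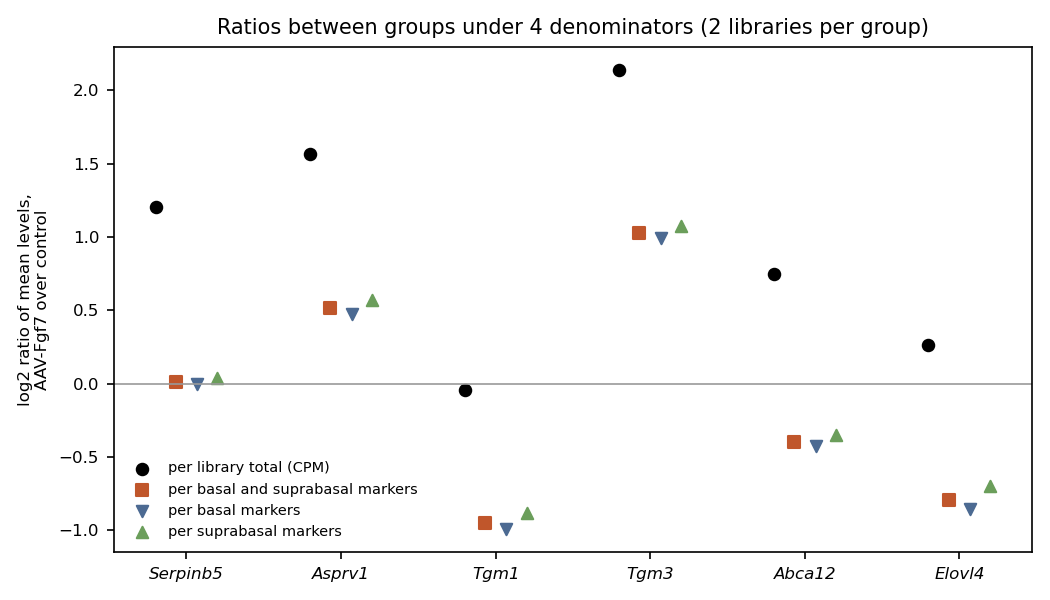
Log2 ratio of mean levels, AAV-Fgf7 over control (vertical axis; 2 libraries per group, no error shown), for the members with at least 20 counts in all, per library total (circles), per summed basal and suprabasal keratinocyte markers (squares) and per each list alone (triangles). Per both lists Serpinb5 is near 0 (0.01), Tgm3 (1.03) and Asprv1 (0.51) stay above 0, and Abca12, Elovl4 and Tgm1 are below.

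Other tissues of the ear varied in other ways. The hair follicle list, whose cells also express Tgm3, summed to 73.6 and 1606 CPM under control virus and to 4847 and 287 CPM under AAV-Fgf7. None of its 12 tested genes was highest in the AAV-Fgf7 library of rat 2. Tgm3 was highest there, on 12 counts against 6 in that of rat 1, and its relation to follicle content was not tested. The sebaceous gland list summed to 285 and 228 against 365 and 338 CPM. Skeletal muscle markers summed to 13406 and 56448 against 29352 and 14211 CPM. Cartilage markers summed to 482 and 1905 against 952 and 563 CPM, and fibroblast markers to between 26870 and 39430 CPM. The part of tissue content in the members' differences was not tested.

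Other genes of cornification and the barrier were read from lists chosen by role. None of their 30 tested genes passed the edgeR test over all genes (adjusted p = 0.9995 for each), and 5 had an unadjusted p under 0.05, all with positive values, against 1.71% of all tested genes. The 5 include Ehf, described below, which was tested only through its AAV-Fgf7 ears. DESeq2 called none of the 30 either. Of 35 cornified envelope and keratohyalin genes in the table, 15 had a count and 3 were tested, all with positive values (median 0.99). The median was 0.46 without the AAV-Fgf7 ear of rat 1 and 0.63 without that of rat 2. Pkp1, a desmosomal plaque protein, averaged 277 ± 15.4 CPM with control virus against 550 ± 174 CPM with AAV-Fgf7 (SD, n = 2). The edgeR estimate on the log2 scale was 0.99 (SE 0.26; unadjusted p = 0.00879). Ppl, which encodes periplakin, a scaffold of the envelope, had 0.45 (SE 0.19). For Pkp1 and Ppl both AAV-Fgf7 libraries lay above both controls, as they did for 14.8% of all tested genes. Tchh, the trichohyalin of hair follicles, had counts of 6 and 68 against 225 and 14, in the order of the hair follicle list.

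Of the 24 cornification proteases, inhibitors and deiminases, 4 were tested, 2 with positive and 2 with negative values (median -0.01). Leaving out 1 library gave medians of 0.31 and -0.20 (control ears of rats 1 and 2) and of 0.28 and -0.24 (AAV-Fgf7 ears of rats 1 and 2). Blmh, the hydrolase that breaks filaggrin down to amino acids, averaged 67.1 ± 13.1 and 111 ± 30.2 CPM (SD, n = 2), and its log2 fold change was 0.72 (SE 0.30). Capn1, a calpain, had 0.15, the cysteine protease Lgmn -0.18 and cathepsin L (Ctsl) -0.36. Ctsl had counts of 22 and 17 in the controls and 16 and 15 in the AAV-Fgf7 ears.

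Of the 39 genes of ceramide and barrier lipid metabolism in the table, 14 were tested, 8 with positive and 6 with negative values (median 0.22). The 4 with the highest mean CPM, which is not scaled by length, were Tecr, a reductase of fatty acid elongation (0.17), Dgat2, a triglyceride synthase (-0.41), Sptlc2, a subunit of the first enzyme of sphingolipid synthesis (-0.06), and Psap, the saposin precursor (-0.22). Both AAV-Fgf7 libraries were above both controls for 4 genes (Elovl6, Abhd5, Smpd1 and Slc27a4) and below for 2 (Cers2 and Ugcg), against 14.8% and 13.3% of all tested genes. Leaving out 1 library moved the list median to between 0.077 (AAV-Fgf7 ear of rat 2) and 0.42 (control ear of rat 1), with 0.098 without the control ear of rat 2. Slc27a4, a fatty acid transport protein whose loss disturbs the barrier, had counts of 46 and 29 against 61 and 97 and a log2 fold change of 1.03 (SE 0.41).

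Of the 16 transcription factors of keratinocyte differentiation, 9 were tested and 8 of them had positive values (median 0.90). Both AAV-Fgf7 libraries were above both controls for 6 of the 9, among them Tfap2a, Zfp750, Trp63, Ppard and Ehf, against 14.8% of all tested genes. Tfap2a, the factor AP-2 alpha, averaged 60.8 ± 2.19 CPM with control virus against 117 ± 7.65 CPM with AAV-Fgf7 (SD, n = 2). The edgeR estimate on the log2 scale was 0.95 (SE 0.23; unadjusted p = 0.00563). Zfp750, a regulator of terminal differentiation, had 0.64 (SE 0.33), Rora 0.25 and Klf4, a factor needed for barrier formation, -0.09. Ehf, an epithelial Ets factor, had counts of 1 and 4 against 18 and 19, and like Asprv1 was high enough for testing only in the AAV-Fgf7 ears. Leaving out the AAV-Fgf7 ear of rat 2 gave a list median of 0.57.

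The tested genes whose levels over the 4 libraries were nearest to the mean profile of the tested members were Tomm40, Mpc1, Sostdc1, Dtx4 and Trp63. They were found among 5587 genes with a mean of at least 10 CPM, by the root mean square distance of centred log2 CPM, which ran from 0.05 for Tomm40 to 0.09 for Trp63. Trp63 encodes p63, the transcription factor of stratified epithelia, and had 20.3 and 17.1 CPM with control virus against 25.2 and 44.5 CPM with AAV-Fgf7. With 4 libraries many profiles can lie this close, and the distances are a description.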

How the data were processed

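Per the labels' protocols, RNA of the 4 ear skin libraries was extracted with the RNeasy kit and sequenced on an Illumina instrument, after poly(A) selection or ribosomal RNA depletion. The authors deposited raw counts per gene and FPKM values for the same genes, and 2 columns of group means were not used. Neither labels nor headers name an aligner or counter. The build was, per the submitters' processing notes, Rnor_6.0 (rn6), but all 54532 rows carry mouse identifiers and coordinates of an unnamed build. Symbols of all 10 members occur in a RefSeq rat table (GRCr8). Reads of genes that differ between species may be missing, so a low count does not show a low transcript level. The second AAV-Fgf7 column, named in no description, was taken as rat 2, whose number it carries. Ratios between the ears of a rat and the fit with rat as a block rest on that choice.

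Library totals ran from 1299136 to 1601321 counts. A filter (filterByExpr of edgeR 4.0.16, R 4.3.3, about 7.02 CPM in at least 2 libraries) kept 6370 of 12902 genes with a count. Groups were compared by edgeR's two-sided quasi-likelihood test with TMM factors, with Benjamini-Hochberg adjustment at 0.05. A run on simulated counts, with a single fixed dispersion for all genes, checked the code and not its power in these data. SE is the fold change over the root of F. The common biological coefficient of variation was 29.1%. Alternatives were DESeq2 1.42.0, limma-voom (limma 3.58.1), other scalings and filters, the authors' FPKM, each library left out, and rat as a replicate block. Both ears of a rat share a number in the titles, which pairs the libraries by animal. Deviations of same-numbered libraries correlated at r = -0.30 across genes, which are not independent replicates. An exact permutation test of 2 against 2 libraries cannot reach 0.05.

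Members and gene lists were chosen with earlier results of these data known. The named genes are the 10 members, the 4 tested genes of highest mean CPM in each list by role, the leading markers of each cell type list, the 5 nearest profiles and Fgf7. Genes named beyond this rule (Slc27a4, Ehf, those listed as above or below both controls, and Krt1, Flg, Ivl, Krtdap, Sbsn and Lor) were chosen after their values were seen.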

Additional observations from a re-analysis of the deposited data

How the results depend on the processing

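No alternative called a member, which says nothing of stability in a design where edgeR did not call Fgf7 either. Asprv1, Serpinb5 and Abca12 kept a positive log2 fold change in all 14 alternatives (1.22 to 1.81, 0.46 to 1.69 and 0.04 to 1.22). Elovl4 and Tgm1 reversed without the control of rat 2 (-0.26 and 0.37) and without the AAV-Fgf7 library of rat 2 (-0.38 and 0.10), and ran over all libraries left out from -0.38 to 1.10 and from -0.36 to 0.37. Over all genes, calls numbered 3 with no low-count filter, 4 by DESeq2, and 0 to 19 when 1 library was left out, the highest without the control of rat 1. With 1 library left out, the lone library of its group is assumed to vary like the others. The members' median then ran from 0.10 to 1.22. Among the libraries left, 2 to 4 members lay above every control, with no share over all genes computed. Medians of the lists ran from 0.46 to 0.94 for envelope proteins, -0.24 to 0.31 for proteases, 0.077 to 0.42 for lipid enzymes and 0.57 to 1.02 for transcription factors. The last was 0.59 on log2(FPKM + 1), with and without the filter. With rat as a replicate block 0 genes and 0 members were called, the members' median was 0.66, and 0 members had an unadjusted p under 0.05, against 2 without it. The crossed block, which pairs each control with the AAV-Fgf7 library of the other rat, was added after seeing the data. It also called 0 genes. By edgeR it had 301 genes and 2 members at an unadjusted p under 0.05, against 75 genes and 0 members with rat as a block. Which pairing is the true one was not tested. Tgm3, St14, Cers3 and both lipoxygenases had 22 counts or fewer over the 4 libraries, which limits their precision, and the cause of these low counts was not tested.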

Other observations

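Several of the best known genes of the cornified layer had few or no counts, although the suprabasal keratin Krt10 was abundant. Krt10 had 1197 and 875 counts in the controls and 1206 and 3710 in the AAV-Fgf7 ears. Krt1, the keratin with which Krt10 pairs in filaments, had 0 and 1 against 1 and 1. Filaggrin (Flg), involucrin (Ivl), Krtdap and Sbsn had 0 counts in every library, and loricrin (Lor) had 1 count in all. Other genes of the envelope list were well counted, with 2382 counts in all for Pkp1, 997 for Ppl and 313 for Tchh. Of the 35 envelope and keratohyalin genes in the table, 15 had a count, while 52.4% of the 22046 rows listed as protein-coding did. How reads of rat transcripts were assigned to the listed mouse genes was not tested here, so the low values of Alox12b, Aloxe3 and Cers3 are values of this table only.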
